A study of Mus musculus with 31 samples.

Results

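Liver mRNA of mice given Control-GalNAc-ASO at 20 mg/kg was compared with that of mice given the same oligonucleotide at 15 mg/kg. These 10 mice, 6 at the higher dose (3 female, 3 male) and 4 at the lower dose (2 female, 2 male), were taken by their sample labels from the 31 mice of the series. All were *hFIX-R29X* mice, which lack the mouse factor IX gene and carry a human factor IX minigene with a nonsense mutation, driven by the human *transthyretin* promoter and therefore expressed mainly in hepatocytes. They were 8 to 14 weeks old, received 6 subcutaneous doses 5 days apart and, per the study's methods, were killed 48 h after the last dose. The dose entry of the labels calls the schedule weekly. The 11 mice given the DPBS vehicle (6 female, 5 male) were of the same strain, and their levels are given as the background. The labels give neither a date nor a sequencing batch, so that the dose and any other difference between the 2 cohorts cannot be told apart. Nothing in the labels says that the mice of a group were housed or processed separately, so the p-values below measure only the spread between these mice.

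An antisense oligonucleotide (ASO) of the gapmer type pairs with a target RNA and recruits RNase H1, which cleaves the RNA strand of the pair. The triantennary *N*-acetyl galactosamine (GalNAc) group is bound by the asialoglycoprotein receptor of hepatocytes and delivers the oligonucleotide to them. A control ASO has no intended target, so that changes seen with it are used to recognise effects of oligonucleotide chemistry, of dosing or of the cohort. The sequence listed for the control oligonucleotide of the study, taken here as that of the GalNAc conjugate, has 16 bases. It is shown with its complement, the sequence an RNA would need in order to pair with it over its full length. The capitals mark the longest run that any annotated mouse transcript shares with the complement, which is 13 bases long.

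control oligonucleotide: ggcCAATACGCCGTCA

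complement of the control oligonucleotide: TGACGGCGTATTGgcc

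None of 141767 annotated mouse transcripts (GENCODE M21, GRCm38) held the whole complement, and 3 genes held a run of at least 12 of its bases. *D10Wsu102e* (chr10:83360221-83488505, plus strand) held the 13-base run and *Katna1* (chr10:7726000-7763150, plus strand) a run of 12 bases, both in transcripts annotated as not coding. *D10Wsu102e* was 49.6, 61.5, 74.1 and 87.7 TPM in the 4 mice at 15 mg/kg, and 37.2 to 128 TPM (median 78.4) in the 6 mice at 20 mg/kg. The groups overlapped, with a log2 fold change of 0.11 ± 0.32 (SE) and an adjusted p of 0.94 in limma. *Katna1*, which encodes the catalytic subunit of the microtubule-severing enzyme katanin, was 14.3, 27.7, 13.8 and 27.4 TPM at 15 mg/kg and 12.8 to 26.4 TPM (median 16.1) at 20 mg/kg. Its groups also overlapped, with a log2 fold change of -0.14 ± 0.37 and an adjusted p of 0.93. In DPBS-treated mice *Katna1* was 12.5 to 37.7 TPM (median 22.3). *Gm11658*, the third gene, was listed at 0 in all 10 mice. Introns were not searched.

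The libraries of the 2 groups overlapped in depth. Values are TPM, reads scaled to a common total, per gene as the authors deposited them. Reads per mouse, inferred from the step between low values, were 1200917 to 7334023 at 20 mg/kg and 3041488 to 5818960 at 15 mg/kg. The study's methods give a much higher average depth, and the difference was not explained. A value of 3 reads, taken as the floor, was 0.406 to 2.48 TPM. Mouse *F9*, the gene these mice lack, was listed at 0 in 3 of the 4 mice at 15 mg/kg and at 0.827 TPM in the other, and between 0 and 6.09 TPM at 20 mg/kg. *Alb*, encoding serum albumin, was 13906 ± 2489 TPM (SD, n = 4) at 15 mg/kg and 14244 ± 4057 TPM (SD, n = 6) at 20 mg/kg. The first principal component held 22.8% of the variance and the second 16.4%, and neither separated the doses. Both males at 15 mg/kg lay lowest on the first component. Pearson's r over genes on the log2 scale was 0.823 to 0.906 for pairs of mice within the 15 mg/kg group, 0.807 to 0.865 within the 20 mg/kg group and 0.776 to 0.898 between the groups. Each mouse's median r with its own group was 0.874 ± 0.0209 at 15 mg/kg and 0.835 ± 0.0101 at 20 mg/kg. A permutation test of these values over mice gave a two-sided p of 0.0190 (0.0571 after Benjamini-Hochberg adjustment over 9 library measures). The values of a group share pairs of mice and were not recomputed for each split. This p therefore cannot decide whether mice were more alike in either group.

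**Figure D1:**
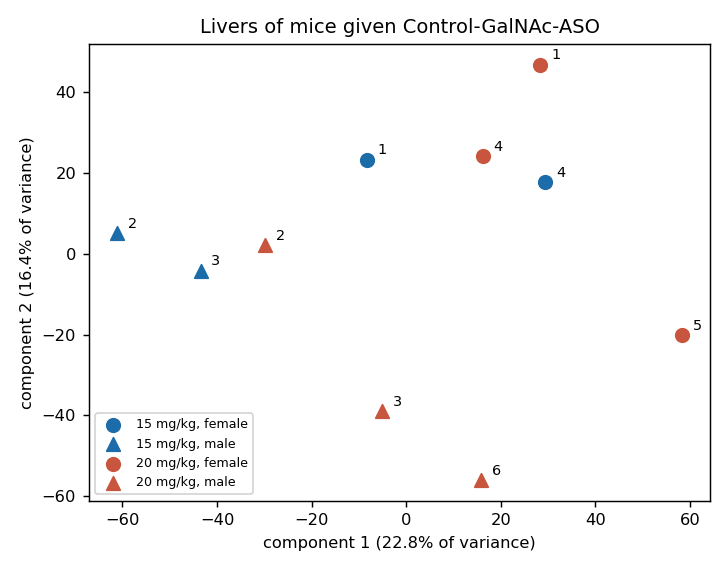
First and second principal components of log2(TPM + 1) in the 10 livers, with each point 1 mouse and its replicate number beside it (circles female, triangles male). Mice at 15 and 20 mg/kg intermingle, and the females lie higher than the males on the second component except for female 5 at 20 mg/kg.

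The comparison asked what differs between the 2 control cohorts of the study. Genes whose median reached 5 TPM in either group were tested on the log2(TPM + 1) scale with sex as a covariate. Of 9222 genes, 0 (0%) had an adjusted p under 0.05 in limma, and the smallest adjusted p was 0.0863. At an unadjusted p under 0.05 there were 887 genes (9.62%), 676 of them higher at 20 mg/kg (7.33%) and 211 lower (2.29%). The study's numeric cutoffs, a 2-fold change together with an unadjusted p no greater than 0.01, were applied here to the limma p. They gave 162 genes, 142 higher (1.54%) and 20 lower (0.217%), and 22 of the 162 had predicted gene symbols. The study used the median over replicates of a p from a negative binomial model, so its counts are an unlike measure. Every mouse at 20 mg/kg lay above every mouse at 15 mg/kg for 118 genes (1.28%) and below for 53 genes (0.575%). The change was under 2-fold for 8526 genes (92.5%), and the median log2 fold change over all genes was 0.06. The split of 142 higher against 20 lower genes depended on the scaling. It was 84 against 39 after quantile normalization and 85 against 35 after median-ratio scaling, so that the share of higher genes was 87.7% as deposited and 68.3% and 70.8% after those scalings. The count was 98 without the male 15 mg/kg replicate 2 and 259 without the female 15 mg/kg replicate 4. Since no gene passed the adjusted test, the genes below are described by their values and by the 2-fold threshold.

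**Figure D2:**
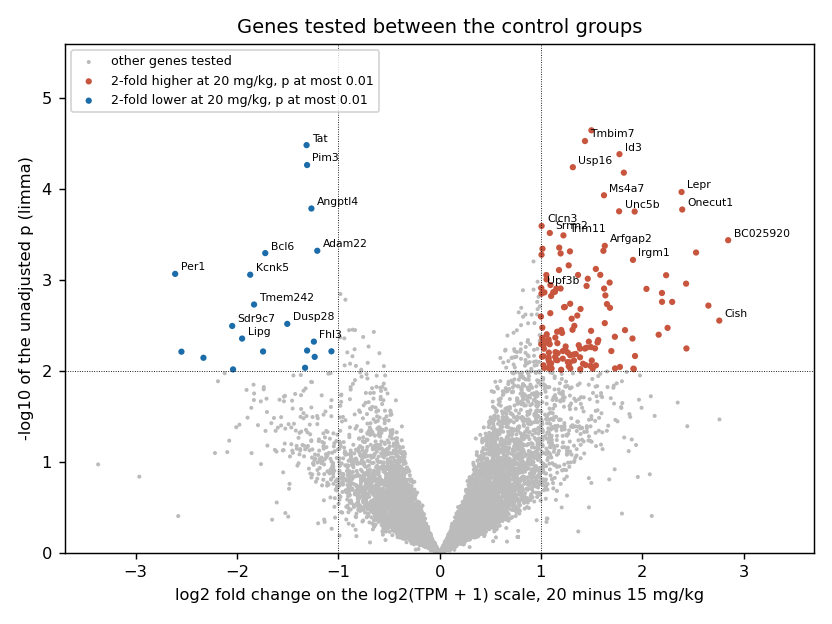
Log2 fold change between the control groups (20 minus 15 mg/kg) against -log10 of the unadjusted p for 9222 genes, with dotted lines at 2-fold and at p = 0.01. The 142 genes past both lines on the right outnumber the 20 on the left, and the named genes are labelled.

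The 12 named genes higher at 20 mg/kg are given first. *Lepr* (chr4:101717404-101815352), encoding the leptin receptor, was 4.27, 0.557, 2.44 and 6.23 TPM at 15 mg/kg and 9.36 to 32.9 TPM (median 20.0) at 20 mg/kg. All 6 mice at the higher dose lay above all 4 at the lower dose, with a log2 fold change of 2.39 ± 0.49 (SE) and an adjusted p of 0.119. *Onecut1* (chr9:74861921-74891781), encoding the liver transcription factor HNF6, was 50.5, 14.8, 16.5 and 91.6 TPM at 15 mg/kg and 98.1 to 348 TPM (median 179.9) at 20 mg/kg. Its groups did not overlap, but the lowest mouse at 20 mg/kg and the highest at 15 mg/kg differed by little, and the log2 fold change was 2.40 ± 0.46 with an adjusted p of 0.125. *Id3* (chr4:136143497-136145755), encoding an inhibitor of basic helix-loop-helix factors that responds to BMP signalling, was 69.9, 65.3, 100.1 and 81.5 TPM at 15 mg/kg and 142 to 457 TPM (median 298) at 20 mg/kg. It did not overlap either, with a log2 fold change of 1.78 ± 0.32 and an adjusted p of 0.0863.

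*Usp16*, encoding a histone H2A deubiquitinase, was 56.5, 27.9, 46.6 and 75.3 TPM at 15 mg/kg and 97.9 to 190.1 TPM (median 117) at 20 mg/kg, a log2 fold change of 1.32 ± 0.25. *Tmbim7*, a member of the family of Bax inhibitor motif proteins, was 99.2, 37.2, 81.5 and 151 TPM at 15 mg/kg and 162 to 300.4 TPM (median 222) at 20 mg/kg, a log2 fold change of 1.44 ± 0.26. Both genes had an adjusted p of 0.0863 and no overlap between the groups. *Usp16* overlaps *Cct8* and *Tmbim7* overlaps *Gatad1* on the other strand. Per the study's methods, Salmon detected the library type, and with it the strand, automatically, but the type found is not stated. *Unc5b*, a netrin receptor gene, was 12.8, 7.87, 5.51 and 11.7 TPM at 15 mg/kg and 17.6 to 52.98 TPM (median 35.9) at 20 mg/kg. *Trim11*, encoding a ubiquitin ligase, was 28.8, 26.7, 27.3 and 47.3 TPM against 50.6 to 124 TPM (median 76.5). *Clcn3*, encoding a chloride-proton exchanger of endosomes, was 81.7, 69.9, 84.6 and 140.2 TPM against 147 to 222 TPM (median 186). These 3 genes did not overlap, and their log2 fold changes were 1.77 ± 0.38, 1.22 ± 0.28 and 1.01 ± 0.22. The remaining named genes were *Ms4a7*, a membrane protein gene of macrophages (1.62 ± 0.33), *Srrm2*, encoding a protein of the spliceosome (1.09 ± 0.25), *BC025920* (2.85 ± 0.62) and *Arfgap2*, encoding a GTPase-activating protein of Golgi traffic (1.63 ± 0.37). The groups overlapped for *Ms4a7*, *Srrm2* and *Arfgap2*, and *BC025920* was listed at 0 in 1 mouse at 15 mg/kg.

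Of the 12 named genes lower at 20 mg/kg, *Tat*, *Per1* and *Angptl4* are also on the list of glucocorticoid and metallothionein genes. *Tat* (chr8:109990437-109999803), encoding tyrosine aminotransferase, a classic glucocorticoid-induced enzyme of amino acid breakdown, was 849, 1063, 436 and 595 TPM at 15 mg/kg and 228 to 383 TPM (median 269) at 20 mg/kg. All mice at 20 mg/kg lay below all mice at 15 mg/kg, with a log2 fold change of -1.31 ± 0.24 and an adjusted p of 0.0863. *Per1* (chr11:69095217-69109960), encoding a repressor of the circadian clock, was 12.96, 31.2, 11.9 and 38.5 TPM at 15 mg/kg and 0.406 to 8.30 TPM (median 2.95) at 20 mg/kg. It too did not overlap, and its log2 fold change of -2.61 ± 0.66 was the largest difference among the 12 genes, with an adjusted p of 0.214. *Angptl4*, encoding a secreted inhibitor of lipoprotein lipase that is induced by fasting, was 184, 105, 128 and 223 TPM at 15 mg/kg and 40.3 to 95 TPM (median 60.4) at 20 mg/kg. Its groups were separate, with a log2 fold change of -1.27 ± 0.27 and an adjusted p of 0.125.

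*Pim3*, encoding a serine/threonine kinase, was 1336, 959.6, 741 and 1574 TPM at 15 mg/kg and 309 to 611 TPM (median 456) at 20 mg/kg, without overlap (log2 fold change -1.31 ± 0.25, adjusted p 0.0863). *Bcl6*, encoding a transcriptional repressor that STAT5 represses in liver, was 26.3, 106, 139 and 24.5 TPM at 15 mg/kg and 8.12 to 30.0 TPM (median 18.3) at 20 mg/kg. The 2 males at 15 mg/kg were high and the 2 females lay within the range of the other group, and the log2 fold change was -1.72 ± 0.41 (adjusted p 0.179). *Kcnk5*, a potassium channel gene, was 30.4, 53.9, 21.2 and 43.0 TPM against 2.19 to 16.6 TPM (median 10.9), without overlap (-1.87 ± 0.47). *Adam22* (-1.21 ± 0.29), *Tmem242* (-1.83 ± 0.50) and *Dusp28* (-1.50 ± 0.44) did not overlap between the groups, whereas *Sdr9c7* (-2.05 ± 0.60), *Lipg*, encoding endothelial lipase (-1.95 ± 0.60), and *Fhl3* (-1.24 ± 0.39) did. *Per1*, *Lipg* and *Sdr9c7* rested on 1 read or none in at least 1 mouse at 20 mg/kg.

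**Figure D3:**
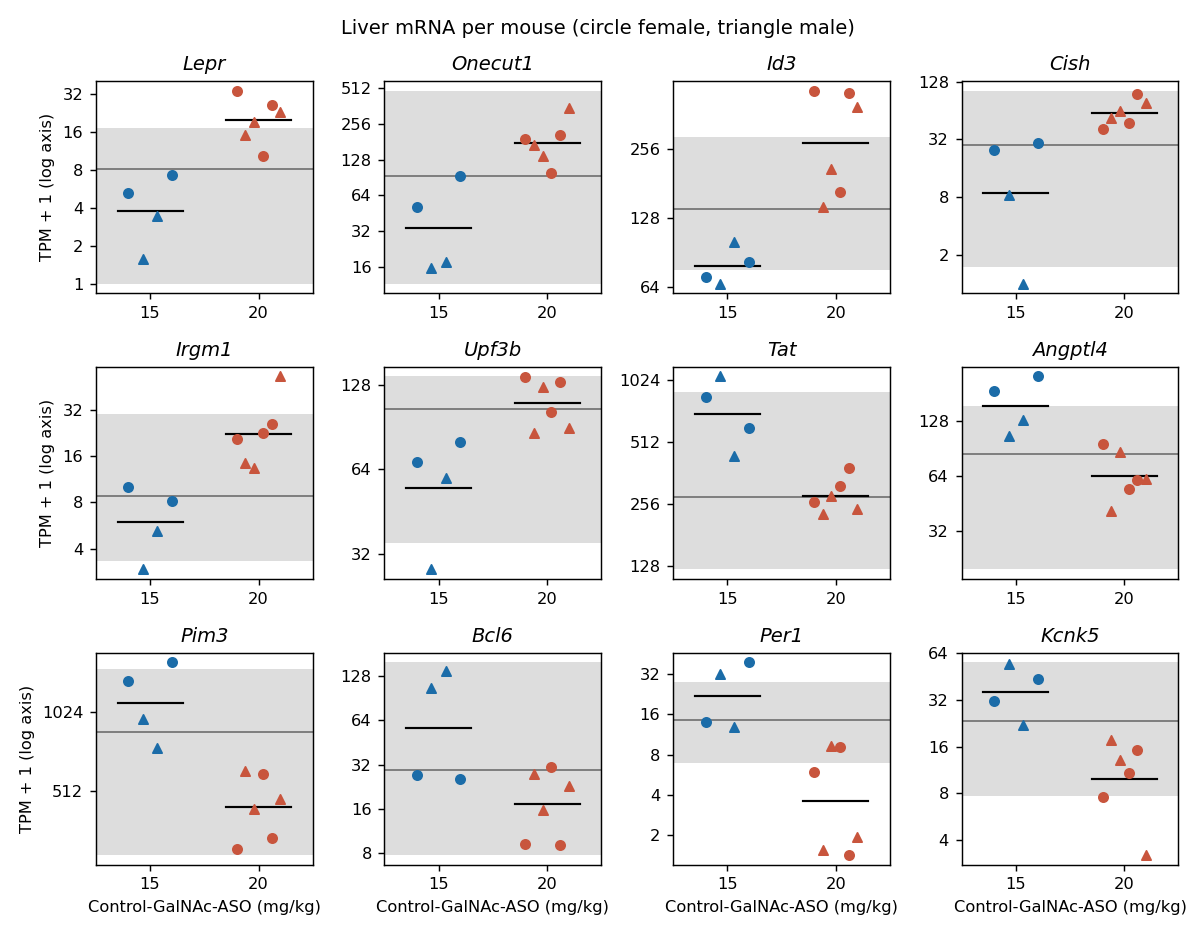
TPM + 1 per mouse on a log axis for 6 genes higher and 6 genes lower at 20 mg/kg (circles female, triangles male; black bars are means of the logs; the grey line and band are the median and range of the 11 DPBS-treated mice). The 12 genes were picked from the named genes, and the groups overlap only for *Bcl6*. Of the genes past the 2-fold threshold, 49 of the 142 higher and 10 of the 20 lower did not overlap. Over all 9222 genes tested the shares were 1.28% and 0.575%.

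In DPBS-treated mice these genes ranged widely. *Tat* was 122 to 897 TPM (median 275), *Lepr* was 0 to 16.3 TPM (median 7.11), and *Per1* was 5.91 to 27.1 TPM (median 13.6). DPBS replicates 6 and 7 had only 1188069 and 1172347 reads. The median r with the DPBS group was 0.795, 0.733 and 0.785 for replicates 5, 6 and 7. Its lowest value in the control ASO mice, each with its own group, was 0.820. The part of these libraries in the low ends of the ranges was not tested. The DPBS median lay between the medians of the 2 control ASO groups for 123 of the 142 genes higher at 20 mg/kg, above both for 13 and below both for 6. For the 20 genes lower at 20 mg/kg, it lay between for 18. On the log2 scale the DPBS median was nearer to the 20 mg/kg median for 83 of the 142 higher genes and nearer to the 15 mg/kg median for 59, and for the lower genes these numbers were 9 and 11. These counts are a description, since the genes were chosen on the same mice.

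The promoters of the named genes were read from RefSeq (GRCm38.p6) over the 250 bases before the start of transcription, and 20 of the 24 genes had an entry, with 26 promoters in all. The letters of 3 response elements, and of the single arm of one of them, were searched on both strands. A gene was counted if any of its promoters held them, whereas shares over all promoters are per promoter. Counts of genes and these shares are therefore unlike measures. The E-box CACGTG, bound by the clock factors CLOCK and BMAL1, occurred in 2 of the higher genes (*Usp16* and *Onecut1*) and in 2 of the lower genes (*Bcl6* and *Per1*), and in 6.02% of all 32851 promoters. The cAMP response element TGACGTCA occurred in 0 genes and in 1.55% of all promoters, and the glucocorticoid response element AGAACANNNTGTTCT in 0 genes and in 3 of all promoters. An element that rare could hardly have been found in so few genes, so its absence decides nothing. Elements further upstream were not searched, and *Angptl4* had no promoter entry. The single arm AGAACA of the last element, which is part of it, occurred in 1 higher gene (*Ms4a7*), in 1 lower gene (*Bcl6*) and in 16.1% of all promoters. The window of *Per1* before its upstream start, chr11:69098699-69098948 on the plus strand, is shown because *Per1* differed most among the lower genes, with its E-box in capitals.

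*Per1*, 250 bases before the upstream start: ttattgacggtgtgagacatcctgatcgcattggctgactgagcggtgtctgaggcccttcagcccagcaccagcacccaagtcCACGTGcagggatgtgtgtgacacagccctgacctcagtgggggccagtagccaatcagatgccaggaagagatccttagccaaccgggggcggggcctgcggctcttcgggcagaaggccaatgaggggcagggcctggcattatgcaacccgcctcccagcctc

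Lists of genes of liver function were described by their counts and medians, beside a median of 0.06 over all genes tested. Because lists and members were chosen with earlier results of these data known, their counts and medians are a description only. Of the 9222 genes tested, 5121 (55.5%) had a log2 fold change above 0, and 1.54% passed the 2-fold threshold upwards and 0.217% downwards, against which the counts of each list are to be read. Glucocorticoid and metallothionein genes had the lowest median, -0.95 over 8 tested of 11 listed, and 3 of them passed the 2-fold threshold downwards (*Tat*, *Angptl4* and *Per1*) and none upwards. These 3 genes were already named above from the same mice, so the rank of their list is not separate evidence. *Tsc22d3*, encoding the glucocorticoid-induced leucine zipper protein, was 40.5 to 75.3 TPM at 15 mg/kg and 5.31 to 52.9 TPM at 20 mg/kg (-1.44 ± 0.50, adjusted p 0.370). *Lpin1*, a phosphatidate phosphatase gene, was 712 ± 336 TPM at 15 mg/kg (SD, n = 4) and 443 ± 155 TPM at 20 mg/kg (SD, n = 6). *Fkbp5*, another glucocorticoid-induced gene, had values of the opposite order, 48.6 ± 32.4 against 81.3 ± 42.0 TPM (0.83 ± 0.30, adjusted p 0.379). *Mt2* was 132 ± 163 against 242 ± 416 TPM, a spread wider than the difference. The summed levels of the 11 genes overlapped, at 1003 to 2513 TPM at 15 mg/kg and 566 to 2551 TPM at 20 mg/kg.

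Genes of fasting and gluconeogenesis had a median of -0.39 over 15 tested of 18 listed, and 13 of the 15 were lower at 20 mg/kg, but 2 passed the 2-fold threshold, and these (*Tat* and *Angptl4*) were also on the previous list. *Pck1*, encoding the rate-limiting enzyme of gluconeogenesis, was 7938 ± 2171 TPM at 15 mg/kg and 4943 ± 2989 TPM at 20 mg/kg (-0.85 ± 0.41, adjusted p 0.556), and the groups overlapped. *Fbp1*, encoding fructose-1,6-bisphosphatase, was 618 ± 6.91 against 492 ± 136 TPM (-0.37 ± 0.21). *Igfbp1*, whose protein binds insulin-like growth factors, was 33.1 to 442 TPM at 15 mg/kg and 4.06 to 212 TPM at 20 mg/kg (-2.10 ± 1.03). Genes of fatty acid and triglyceride synthesis had a median of -0.36 over 19 tested of 22 listed, with 17 lower and none past the 2-fold threshold. *Scd1*, encoding stearoyl-CoA desaturase, was 4119.8 ± 1167 against 2279 ± 1114 TPM (-0.94 ± 0.28, adjusted p 0.334). *Dgat2*, encoding the enzyme of the last step of triglyceride synthesis, was 362 ± 37.9 against 225 ± 83.7 TPM (-0.75 ± 0.23). *Fasn*, encoding fatty acid synthase, was 316 ± 98.4 against 201 ± 63.1 TPM (-0.65 ± 0.25). *Thrsp* was 539.7 ± 207 against 345 ± 184 TPM, and *Elovl5* was 589 ± 128 against 534 ± 76.0 TPM. The medians of these 3 lists stayed below 0 when each mouse was left out in turn. They also did under both other scalings, which lowered the median over all genes from 0.06 to -0.03 (quantile) and -0.02 (median-ratio). Those scalings could therefore hardly have raised a list above 0 and decide nothing.

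Of the remaining lists of lipid and xenobiotic metabolism, some had medians near that of all genes and others lay below it. Fatty acid oxidation and ketogenesis (27 tested of 27) had a median of 0.06, cholesterol synthesis and uptake (22 of 22) 0.07, bile acid synthesis and transport (15 of 16) -0.10 and targets of CAR, PXR and AhR (18 of 28) -0.09. Apolipoproteins and lipases (17 of 18) had a median of -0.17, with 14 lower and 3 higher, and between -0.31 and -0.12 when 1 mouse was left out. None of their members passed the 2-fold threshold. Phase 2 and glutathione transferase genes had a median of -0.27 over 26 tested of 28, with 20 lower and none past the threshold. *Ephx1*, encoding microsomal epoxide hydrolase, was 70.6 ± 22.4 against 35.2 ± 10.3 TPM (-0.98 ± 0.30, adjusted p 0.334). *Gsta3*, encoding an alpha-class glutathione transferase, was 490.1 to 776 TPM at 15 mg/kg and 297 to 474 TPM at 20 mg/kg. Its groups did not overlap, though the log2 fold change was -0.51 ± 0.20. In retinol metabolism (13 tested of 14, median -0.27), *Cyp26a1*, encoding the enzyme that clears retinoic acid, passed the threshold downwards at 30.4, 26.9, 1.10 and 11.1 TPM against 0 to 7.04 TPM (median 0.672) (-2.55 ± 0.82, adjusted p 0.337). The third mouse at 15 mg/kg lay within the range of the other group. In circadian clock and output genes (19 tested of 25, median -0.05), 1 gene passed the threshold, *Per1*. *Tef*, a clock output factor gene, was 683 ± 81.7 against 614 ± 178 TPM, and *Dbp* was 160.2 ± 66.6 against 103 ± 42.8 TPM (-0.66 ± 0.31). *Per2* and *Per3*, the other *Per* genes, were 19.2 ± 9.45 against 17.9 ± 7.61 TPM and 20.9 ± 3.18 against 28.2 ± 16.4 TPM.

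**Figure D4:**
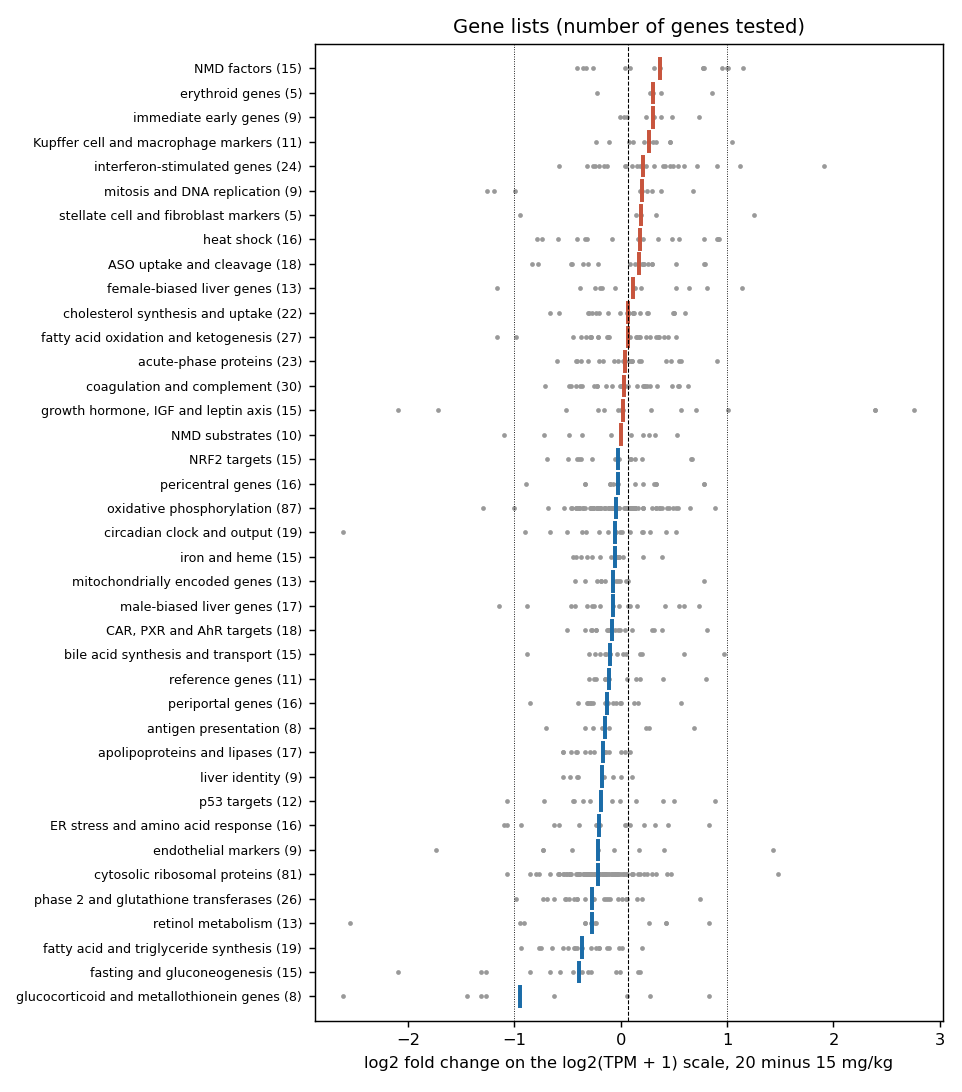
Log2 fold changes (20 minus 15 mg/kg) of the tested members of each gene list with at least 5 tested genes (grey points), the list median (coloured bar) and the median over all genes (dashed line), with the number of tested genes in brackets. Glucocorticoid and metallothionein genes lie lowest, and members of most lists fall within 2-fold (dotted lines).

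In the growth hormone, IGF and leptin axis, 3 genes passed the 2-fold threshold upwards and 1 downwards of 15 tested of 15 listed (1.54% and 0.217% over all genes), at a median of 0.02. The higher genes were *Lepr* and *Onecut1*, described above, and *Cish*. *Cish* (chr9:107296026-107302784), encoding a suppressor of cytokine signalling that growth hormone induces, was 24.0, 7.39, 0 and 28.0 TPM at 15 mg/kg and 39.7 to 93.4 TPM (median 56.9) at 20 mg/kg. All mice at 20 mg/kg lay above all mice at 15 mg/kg, with a log2 fold change of 2.76 ± 0.72 and an adjusted p of 0.295. The lower gene was *Bcl6*. *Socs2*, encoding another growth hormone-induced suppressor, was 35.5 ± 9.59 against 63.2 ± 33.4 TPM (0.71 ± 0.30, adjusted p 0.465), and *Stat5b*, encoding the transcription factor that transmits the growth hormone signal, was 23.4 ± 8.38 against 56.8 ± 42.0 TPM (1.01 ± 0.46, adjusted p 0.507). *Igf1*, the main hepatic product of growth hormone action, was 821 ± 137 against 819 ± 114 TPM, *Igfbp2* was 1539 ± 496 against 1509 ± 241 TPM and *Ghr* was 160.4 ± 55.9 against 134 ± 32.4 TPM, so that each of these differences was smaller than the spread between mice. Male-biased liver genes (17 tested of 18) had a median of -0.08 and female-biased genes (13 of 19) one of 0.12, with none past the threshold.

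Genes of nonsense-mediated mRNA decay (NMD), the process that degrades mRNAs with premature stop codons, were not targeted in these mice, and *Upf3b*, one of them, is the target of the active ASO of the series. The NMD factors had a median of 0.36 over 15 tested of 17, with 11 higher, 4 lower and 1 past the 2-fold threshold. The median moved with single mice, from 0.17 without the 15 mg/kg replicate 2 to 0.64 without the 15 mg/kg replicate 4, and was 0.12 in females alone and 0.58 in males alone. The gene past the threshold was *Upf3b* (chrX:37091678-37110322, minus strand), encoding a factor that links the exon junction complex to the NMD machinery. It was 66.9, 27.1, 58.5 and 78.7 TPM in the mice at 15 mg/kg and 85.3 to 135 TPM (median 113) at 20 mg/kg. The groups did not overlap, with a log2 fold change of 1.004 ± 0.26 and an adjusted p of 0.222. The DPBS-treated mice were at 33.8 to 136 TPM (median 104), nearer to the 20 mg/kg group. *Upf2*, encoding the factor that bridges UPF1 and UPF3B, was 35.3, 13.1, 47.4 and 80.2 TPM against 55.9 to 119.8 TPM (median 69.0), and the groups overlapped (0.998 ± 0.37, adjusted p 0.394). *Smg6*, encoding the endonuclease of the pathway, was 47.8 ± 10.7 against 84.9 ± 28.9 TPM (0.78 ± 0.29), and *Gspt1*, encoding the release factor eRF3a, was 40.8 ± 9.65 against 72.3 ± 24.9 TPM (0.77 ± 0.29). *Magoh* and *Rbm8a*, the core pair of the exon junction complex, were 124 ± 44.0 against 123 ± 28.3 TPM and 122 ± 18.6 against 96.4 ± 24.1 TPM. *Upf1*, encoding the central helicase, was 34.1, 8.58, 20.4 and 0.326 TPM against 0 to 24.9 TPM (median 8.80), a spread over the whole range in both groups (-0.33 ± 1.07). *Upf1* overlaps *Cers1* and *Gdf1* on the other strand.

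NMD substrates (10 tested of 20 listed) had a median of 0.00, with 5 higher, 5 lower and none past the threshold. *Atf4*, the stress-response factor gene that has upstream reading frames, was 246 ± 19.4 against 315 ± 72.8 TPM (0.33 ± 0.21), and *Hnrnpdl* was 95.8 ± 35.1 against 137 ± 38.7 TPM (0.53 ± 0.26). *Smg9*, an NMD factor gene, was 4.51, 2.92, 10.6 and 7.37 TPM against 6.86 to 14.3 TPM (median 11.1) (0.78 ± 0.46). *Gm10160* was 3.40, 1.54, 0 and 3.86 TPM against 4.31 to 13.3 TPM (median 8.02), without overlap, and passed the 2-fold threshold (1.73 ± 0.60, adjusted p 0.359), although these values rest on 0 to 49 reads. *Kri1* was 0.512, 9.16, 0 and 2.57e-05 TPM against 0 to 37.8 TPM (median 6.63), and *Dlgap5*, a mitotic gene, was 16.5, 6.56, 6.89 and 17.2 TPM against 8.66 to 34.6 TPM (median 11.4). Both overlapped, with adjusted p of 0.670 and 0.908. *Lipc*, encoding hepatic lipase, was 107, 60.8, 65.1 and 91.0 TPM against 25.9 to 138 TPM (median 68.9), and *Gapdh*, often used as a reference gene, was 92.0, 102, 63.6 and 146 TPM against 60.7 to 238 TPM (median 129). Neither differed beyond the spread between mice (-0.29 ± 0.30 and 0.40 ± 0.34).

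Innate immune genes are watched because oligonucleotides can induce them. Among interferon-stimulated genes (24 tested of 34, median 0.21, 17 higher and 7 lower), 1 passed the 2-fold threshold. The median was 0.0066 without the 15 mg/kg replicate 3 and 0.41 without the 15 mg/kg replicate 4, and it was -0.11 in females alone and 0.54 in males alone. *Irgm1*, encoding a GTPase of defence against intracellular pathogens, was 9.07, 1.93, 4.23 and 7.17 TPM at 15 mg/kg and 12.4 to 51.9 TPM (median 20.8) at 20 mg/kg, without overlap (1.91 ± 0.46, adjusted p 0.197). *Bst2*, the most abundant member and an antiviral membrane protein gene, was 836 ± 366 against 822 ± 234 TPM, *Iigp1* was 494 ± 177 against 646 ± 164 TPM, and *Isg15*, encoding a ubiquitin-like modifier, was 139 ± 55.9 against 260.3 ± 195 TPM. Antigen presentation genes (8 tested of 10, median -0.15) and acute-phase protein genes (23 of 24, median 0.04) had none past the threshold. The same was true of p53 targets (12 of 17, median -0.19), NRF2 targets (15 of 18, -0.02), ER stress and amino acid response genes (16 of 22, -0.21), immediate early genes (9 of 17, 0.30) and heat shock genes (16 of 17, 0.18). *Hsp90ab1*, a constitutive chaperone gene, was 1838 ± 854 against 3379 ± 1048 TPM (0.90 ± 0.31, adjusted p 0.361).

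Of the genes of ASO uptake and cleavage (18 tested of 20, median 0.17), none passed the 2-fold threshold. *Asgr1*, encoding the major subunit of the asialoglycoprotein receptor that binds GalNAc, was 2439 ± 648 TPM (SD, n = 4) at 15 mg/kg and 1399.7 ± 478 TPM (SD, n = 6) at 20 mg/kg. The groups overlapped between 1882 and 2097 TPM, and the log2 fold change was -0.83 ± 0.25 with an adjusted p of 0.318. The DPBS-treated mice were at 1013 to 5217 TPM (median 2099.7). *Asgr2*, encoding the minor subunit, had a log2 fold change of -0.31. *Xrn1*, encoding the cytoplasmic exonuclease that degrades cleaved RNA, was 40.3 ± 8.18 against 72.6 ± 23.7 TPM (0.79 ± 0.28), *Lrp1* was 402 ± 73.3 against 494 ± 84.8 TPM and *Lamp1*, a lysosomal membrane protein gene, was 487 ± 125 against 379 ± 102 TPM.

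Markers of other cell types were measured because a liver sample can hold varying amounts of blood and non-parenchymal cells, and in whole tissue fewer cells of a type and less RNA per cell cannot be told apart. Kupffer cell and macrophage markers summed to 287 to 525 TPM at 15 mg/kg and 289 to 908 TPM at 20 mg/kg, and 9 of 11 tested members of 12 were higher (median 0.27), none past the threshold. That median was 0.03 without the 20 mg/kg replicate 4, 0.04 without the 15 mg/kg replicate 1 and at most 0.39 without another mouse. Their part in the level of *Ms4a7* was not tested. Endothelial markers summed to 666 to 1214 TPM and 662 to 1706 TPM, and of 9 tested of 10, 3 were higher and 6 lower (median -0.22), with 1 past the threshold in each direction. *Lyve1*, a hyaluronan receptor gene of sinusoidal endothelium, was 4.95, 5.48, 6.34 and 8.48 TPM against 5.94 to 33.5 TPM (median 19.0) (1.43 ± 0.46), and *Cdh5*, encoding the cadherin of endothelial junctions, was 11.1, 25.5, 17.9 and 20.5 TPM against 0.625 to 16.0 TPM (median 5.05) (-1.74 ± 0.56). Both overlapped and had an adjusted p of 0.337. *Bmp2*, encoding a bone morphogenetic protein, was 45.8 ± 5.34 against 27.5 ± 5.14 TPM (-0.73 ± 0.28, adjusted p 0.403) and was the one endothelial marker tested whose groups did not overlap. *Pecam1*, the most abundant endothelial marker, was 687 ± 242 against 809.6 ± 401 TPM. Stellate cell and fibroblast markers summed to 79.9 to 213 TPM and 129 to 212 TPM, and of 5 tested of 10 listed, 4 were higher and 1 lower (median 0.19), none past the threshold. Within them *Lrat*, encoding the enzyme that stores retinol as esters, was 11.2 ± 8.59 against 6.09 ± 6.56 TPM (-0.95 ± 0.64), and *Col3a1*, a fibrillar collagen gene, was 3.58 to 5.25 TPM against 8.12 to 18.2 TPM, without overlap (1.25 ± 0.45, adjusted p 0.390). Cholangiocyte markers summed to 6.95 to 20.6 TPM and 13.3 to 34.4 TPM, pancreas genes to 175 to 399.95 TPM and 147 to 414 TPM, and muscle and fat genes to 21.8 to 53.5 TPM and 23.9 to 51.6 TPM. No neutrophil or lymphocyte marker reached the level for testing, and their sums were at most 10.4 and 11.9 TPM at 15 mg/kg and at most 110.3 and 23.7 TPM at 20 mg/kg. Erythroid genes summed to 1143 to 1698 TPM at 15 mg/kg and to 839 to 5351 TPM at 20 mg/kg, the highest being female 4 at 20 mg/kg.

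Other lists were described by their medians alone. Cytosolic ribosomal protein genes had a median of -0.22 over 81 tested of 88, with 64 lower, 17 higher and 1 past the threshold, *Rps27l*, a paralog of *Rps27* that p53 induces. *Rps27l* was 111, 162, 107 and 111 TPM against 27.2 to 125 TPM (median 57.7) (-1.07 ± 0.34, adjusted p 0.337). Nuclear genes of oxidative phosphorylation had a median of -0.05 (87 tested of 97), the mitochondrially encoded genes -0.07 (13 of 13), liver identity genes -0.17 (9 of 10), pericentral genes -0.03 (16 of 17), periportal genes -0.13 (16 of 16), coagulation and complement genes 0.03 (30 of 33), iron and heme genes -0.05 (15 of 18), mitosis and DNA replication genes 0.20 (9 of 24), genes of the sex chromosomes 0.19 (4 of 5) and reference genes -0.11 (11 of 12). None of their members passed the 2-fold threshold.

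The difference between the cohorts also followed the length of the transcript. Transcript length, taken as the longest annotated transcript in GENCODE M21, was known for 9040 of the 9222 genes. The median log2 fold change was -0.08, 0.02, 0.06, 0.12 and 0.21 in 5 bins of equal size from the shortest to the longest transcripts. Among the 1808 genes of the bin of the longest transcripts, 41 (2.27%) passed the 2-fold threshold upwards and 1 (0.0553%) downwards. Among the 1809 of the shortest, these were 21 (1.16%) and 6 (0.332%), and over all genes 1.54% and 0.217%. The trend was not particular to transcript length. Over 5 bins of gene span the median went from -0.02 to 0.15, and over 5 bins of mean level from 0.11 to -0.004. In each mouse, the mean log2(TPM + 1) of the bin of the shortest transcripts was subtracted from that of the longest, so that a value nearer 0 means relatively more signal from long transcripts. It was -0.61, -0.79, -0.67 and -0.48 at 15 mg/kg and between -0.46 and -0.26 with a median of -0.40 at 20 mg/kg. Every mouse at 20 mg/kg lay above every mouse at 15 mg/kg (exact permutation test, two-sided p = 0.00952, the smallest that the 210 splits allow, and 0.0571 after adjustment over 9 library measures). Among protein-coding genes alone the means were -0.73 and -0.45 (exact p = 0.0190, adjusted 0.0571). This measure was chosen after the data were seen. With it as a further covariate, 66 genes passed the 2-fold threshold, 4 of them among the 162, but the groups do not overlap in it, so that it and the dose were fitted on nearly the same contrast. Its part in the levels of single genes was not tested further. The bin of the longest transcripts began at 5374 bases and that of the shortest ended at 1908 bases. Among the higher genes, *Lepr*, *Unc5b*, *Clcn3* and *Srrm2* have transcripts of 5542, 5869, 8193 and 8864 bases, whereas *Id3* and *Tmbim7*, the higher genes with the smallest p-values, have transcripts of 1278 and 1552 bases. *Adam22*, with the longest transcript of the named genes at 9245 bases, was the only one of the 12 named lower genes in the bin of the longest. *Tmem242*, *Dusp28* and *Fhl3*, at 948, 1314 and 1664 bases, were lower genes in the bin of the shortest.

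**Figure D5:**
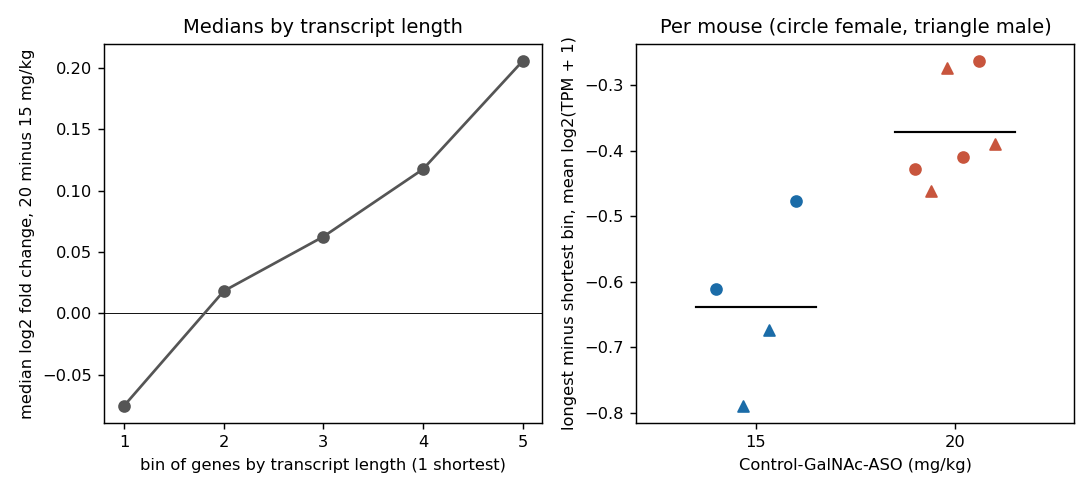
Left, median log2 fold change (20 minus 15 mg/kg) in 5 equal bins of genes by the length of the longest annotated transcript. Right, mean log2(TPM + 1) of the bin of the longest minus that of the shortest in each mouse (circles female, triangles male; bars are group means), where all 6 mice at 20 mg/kg lie above all 4 at 15 mg/kg.

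Differences between the sexes in the response to dose were tested as an interaction. In limma 0 of 9222 genes had an adjusted p under 0.05 for the interaction, and the smallest adjusted p was 0.163. An unadjusted p under 0.05 was found for 306 (3.32%), fewer than that threshold gives without any interaction. At the 2-fold threshold with an unadjusted p no greater than 0.01 there were 42 of the 9222 genes, among them the named genes *Onecut1*, *BC025920*, *Fhl3* and *Cish*. Within the females alone (2 against 3) the log2 fold changes of *Lepr*, *Onecut1* and *Cish* were 1.76, 1.19 and 1.07, and within the males alone (2 against 3) they were 3.01, 3.60 and 4.46. The interaction of *Cish* was 3.39 with an adjusted p of 0.9998, and that of *Onecut1* was 2.40 with an adjusted p of 0.9998. That of *Lepr* was 1.25 ± 0.97 (limma, unadjusted p 0.213) and passed neither threshold. *Tat*, *Per1* and *Kcnk5* were lower in both sexes by similar amounts, at -1.18, -2.47 and -1.79 in females and -1.45, -2.75 and -1.95 in males. *Fhl3* was -0.25 in females and -2.24 in males, with an interaction of -1.99 ± 0.64 (limma, unadjusted p 0.00602, adjusted p 0.9998). *Bcl6* was -0.93 and -2.51, with an interaction of -1.57 ± 0.76 that passed neither threshold.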

How the data were processed

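Liver RNA of 31 mice was sequenced in single libraries, of which the 10 given Control-GalNAc-ASO were tested and the 11 given DPBS described. The authors deposited TPM per gene symbol, made per their processing notes with bcl2fastq 2.17.1.14 and Salmon 0.7.2 on GRCm38.p4. The labels name a QuantSeq 3' kit, whereas the study's methods name TruSeq, so that a level may rest on the 3' end alone. Between 73.8% and 78.2% of the low values of a mouse were whole multiples of 1 step within 0.02 reads, which gave the reads quoted. Since the rest were not, the unit was kept as TPM and a count test was not used. Of 31198 symbols, 26 turned into dates were left out.

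limma 3.58.1 (R 4.3.3; lmFit, then eBayes with trend and robust) was run on log2(TPM + 1) of the 10 mice with sex as a covariate, for genes whose median reached 5 TPM in either group, with Benjamini-Hochberg adjustment. A fold change on this scale understates that of low genes. Calls were an adjusted p under 0.05, or 2-fold together with an unadjusted p no greater than 0.01. Exact permutation tests over 210 splits, two-sided, were made in Python 3.11.15 with scipy 1.17.1, numpy 2.4.6 and pandas 2.3.3, and figures with matplotlib 3.10.9. The steps were tested on simulated data. Floors cover counting error only.

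Named genes were up to 12 per direction by smallest unadjusted p among 2-fold genes, since none passed the adjusted threshold, leaving out predicted symbols, then members of 45 gene lists past a threshold, the most abundant members of lists, and 10 fixed genes. *Asgr2*, *Dbp*, *Dgat2*, *Ephx1*, *Fasn*, *Fkbp5*, *Gspt1*, *Igfbp1*, *Lrat*, *Per2*, *Per3*, *Socs2*, *Stat5b*, *Tsc22d3* and *Xrn1* were named, and *Per1* chosen for its promoter, after their values were seen. The members and lists were chosen with earlier results of these data known. Positions came from GENCODE M21 (GRCm38). Alternatives were another pseudocount, filter, scaling, sample set or covariate.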

Additional observations from a re-analysis of the deposited data

Results flagged for a closer look

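A sample far from the others of its group, by Dixon's test at 95%, was found in 11 of 94 groups of values tested over the named genes and library measures, and chance alone gives about 1 in 20. At 20 mg/kg the highest mouse stood apart for *Usp16* (female 5 at 190.1 TPM, the next at 126 TPM), *Cdh5* (male 3 at 16.0 TPM, the next at 5.28 TPM), *Cyp26a1* (male 2 at 7.04 TPM, the next at 1.88 TPM), *Irgm1* (male 6 at 51.9 TPM, the next at 25.04 TPM) and *Dlgap5* (male 3 at 34.6 TPM, the next at 12.8 TPM). At 15 mg/kg it did for *Trim11* (female 4 at 47.3 TPM, the next at 28.8 TPM), *Rps27l* (male 2 at 162 TPM, the next at 111 TPM) and *Kri1* (male 2 at 9.16 TPM, the next at 0.512 TPM). Of the library measures, female 4 at 20 mg/kg had 9107 genes of at least 5 TPM, where the next mouse had 8778, and its hemoglobin genes summed to 5331 TPM, where the next was at 2138 TPM. Male 2 at 15 mg/kg had the lowest share of mitochondrially encoded RNA, 4.99% of the TPM against 5.56% in the next. Their causes were not tested.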

How the results depend on the processing

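Values of low genes rest on few reads, with 3 reads at 0.406 to 2.48 TPM. The count at an adjusted p under 0.05, 0 in the analysis reported, was 6 with a pseudocount of 5, 19 with array weights, 1 with the length measure as a covariate (added after seeing the data), 2 in females alone and 12 in males alone, and 0 to 9 when 1 mouse was left out (9 without the 15 mg/kg replicate 4, 4 without the 20 mg/kg replicate 4, 2 without the 20 mg/kg replicate 2). The 162 genes at 2-fold (142 higher, 20 lower) became 100 (90 higher, 10 lower) with a minimum of 20 TPM, 74 (56 higher) with all 5 groups in the fit, 66 (41 higher) with the length measure, 50 (32 higher) in females alone, 246 (223 higher) in males alone and 107 (84 higher) with replicates 1 to 4. Replicates sharing a number did not deviate together (r -0.21 to -0.11), and with the replicate block 119 genes (92 higher) passed at 2-fold and 0 at an adjusted p under 0.05. The higher genes were 94 with a pseudocount of 5, and 84 and 85 under quantile and median-ratio scaling, where the lower were 39 and 35. The lower genes were 43 with no filter and 32 with array weights. Leaving out 1 mouse gave 98 to 259 genes, 83 to 236 higher (91 without the 20 mg/kg replicate 6) and 15 to 44 lower (44 without the 20 mg/kg replicate 2, 38 without the 20 mg/kg replicate 4). The interaction gave 42 genes at 2-fold. Reversals were counted only for the 12 genes per direction, the list members past a threshold and the 10 fixed genes. Of the 39 of these that were tested, 5 reversed under some setting. *Upf1* was 0.0366 with reads as a covariate, 3.23 with the length measure, 0.0726 in females and between -1.33 and 0.49 without 1 mouse, *Dlgap5* was -1.05, -0.70 in females and between -0.0695 and 0.48, and *Rps27l*, *Lipc* and *Gapdh* were 0.39, 0.12 and -0.62 with the length measure. The causes were not tested.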
